A study of Mus musculus with 19 samples.

Results

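The cadherins and protocadherins of the embryonic mouse cortex were described across 2 regions and 2 genotypes. All gene symbols made of Cdh and a number, of Pcdh and a number, or beginning with Pcdha, Pcdhb or Pcdhg were taken, which gave 93 members among 47643 genes. RNA was sequenced from E14.5 cortex, taken while cortical neurons are being born, in 19 libraries. The controls were wildtype. Mutant tissue was GFAP::Cre; SmoM2: a Cre driven by the promoter of the glial gene GFAP turns on SmoM2, a form of the Hedgehog transducer Smoothened that signals without ligand. The groups were control dorsal cortex (6 libraries), mutant dorsal cortex (4), control medial cortex (5) and mutant medial cortex (4). The tissue field names dorsal and medial cortex, while the protocol names medial or lateral cortices. The labels do not say which cells had recombined, and they do not state whether each numbered replicate was its own embryo. The p-values therefore reflect the spread between these libraries, which may be technical.

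Cadherins are membrane proteins whose extracellular repeats bind calcium and join neighbouring cells. Classical cadherins bind catenins on their cytoplasmic side and so link to actin. Type I members such as N-cadherin hold the adherens junctions of radial glia at the ventricular surface, and type II members are known for labelling areas, layers and nuclei of the developing brain in combinations. The unclustered protocadherins of the delta groups act in sorting, migration and axon growth. The clustered protocadherins are made from 3 neighbouring gene arrays, in which each neuron picks a few promoters, and their homophilic binding lets a neuron tell its own neurites from those of other cells.

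Values were in TPM, a unit scaled for gene length and to a total of 1000000 per library, which keeps no sequencing depth. Each library had 17357 to 18670 genes above 0. Gli1, a target of Hedgehog signalling, lay between 0.2 and 1.08 TPM in the control libraries and between 24.3 and 48.1 TPM in the mutant libraries, as labelled. The pallial markers Emx1, Emx2, Lhx2, Pax6, Eomes, Tbr1 and Neurod6 were above 0 in every library. The summed TPM of 8 markers of projection neurons ran from 5430 to 6100 in control dorsal, 3460 to 5130 in mutant dorsal, 3480 to 4570 in control medial and 2430 to 3180 in mutant medial libraries, lowest dorsally in mutant dorsal replicate 3. None of the 8 was at 0 in any library. Summed markers of interneurons ran from 47.2 to 59.5, 22.6 to 48.4, 39.9 to 45.1 and 12.5 to 23.4 TPM in the same order, those of cortical hem and Cajal-Retzius cells from 55.1 to 68.6, 32 to 65, 87.4 to 172 and 33 to 99.7 TPM, and those of radial glia from 2460 to 2820, 2540 to 2740, 3080 to 3860 and 2990 to 3330 TPM. Meningeal and mesenchymal markers reached 79.7 TPM in 1 mutant medial library. These sums move with genotype, with region or with both, and their part in the results below was not tested. In bulk tissue, fewer cells of a type and less RNA per cell cannot be told apart. Markers of choroid plexus summed to 967 TPM in control medial replicate 4 and 167 TPM in mutant medial replicate 3, against at most 62.1 TPM in the other libraries. Controls 2, 3 and 4 were female by Xist and Ddx3y, and all others, mutants included, were male, so sex is partly confounded with genotype.

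Of the 93 members, 58 reached 1 TPM in at least 4 libraries and were tested, and 35 did not. Among the 34 unclustered members 25 passed, and among the 59 clustered members 33 passed. Of the 35 below the filter, 33 never reached 1 TPM, 3 were listed at 0 in every library, and the highest value in any library was 1.09 TPM. E-cadherin (Cdh1), the adhesion protein of most epithelia, reached 0.186 TPM at most. P-cadherin (Cdh3) reached 1.03 TPM in control medial replicate 4, the library with the most choroid plexus RNA, and at most 0.133 TPM in the other libraries. Pcdhac2, a C-type member of the Pcdha array, lay between 0.0403 and 0.178 TPM.

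N-cadherin (Cdh2) held the largest share of the family's transcripts, with 30.1% of the summed member TPM in control dorsal, 30.3% in mutant dorsal, 34.2% in control medial and 36.5% in mutant medial cortex. By mean TPM over all libraries it stood at 202, followed by Cdh11 at 48.4, Pcdh18 at 41.2, Pcdh8 at 33.1 and Pcdh9 at 27.2. All 93 members together summed to 744 ± 43.3 TPM (SD, n = 6) in control dorsal and 611 ± 69.8 TPM (n = 4) in mutant dorsal cortex. In medial cortex the sums were 612 ± 36 TPM (n = 5) in controls and 485 ± 32.1 TPM (n = 4) in mutants. The control medial and mutant dorsal sums overlapped, and the mutant medial libraries, at 454 to 520 TPM, lay below every other library. The 59 clustered members held 11.1% to 14.2% of these sums.

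The first comparison set mutant against control within each region, with a limma fit over all 13520 genes and Benjamini-Hochberg adjustment at 0.05. Fold changes below are log2 differences on the log2(TPM + 1) scale, which understates changes of low genes, each with its standard error. In dorsal cortex 18 of the 58 tested members were lower and 2 higher in mutants, that is 31.0% and 3.45%, where over all genes 27.6% were lower and 9.93% higher. In medial cortex 22 members were lower and 1 higher (37.9% and 1.72%), against 30.2% and 9.44% of all genes. The median log2 difference over the members was -0.31 dorsally and -0.41 medially, beside -0.10 and -0.11 over all genes. Over all 58 members the lower shares stood near those of all genes, so these pooled counts are no result about the group. Of the 25 unclustered members 12 (48.0%) were lower dorsally and 11 (44.0%) medially, above the shares of all genes. Of the 33 clustered members 18.2% and 33.3% were lower. This split was not tested. With genotype and number as a random block, 20 of 58 were lower dorsally and 28 medially, where 26.9% and 30.5% of all genes were. In the fit without a block the count of lower members fell from 18 to 10 dorsally without mutant dorsal replicate 3. It was also 10 without both libraries of mutant 3. With control medial 4 and mutant medial 3 left out, the medial count was 12. Under quantile normalization, which moves the median of all genes in medial cortex from -0.11 to -0.007, the calls were 3 higher and 11 lower dorsally and 5 higher and 12 lower medially. Under median-ratio rescaling they were 3 and 12 dorsally and 4 and 17 medially. The shares of all genes called in these rescaled fits and in the fits without libraries are not given here. These counts therefore cannot be read as results about the members. With sex as a covariate 5 dorsal calls were lost, those on Cdh24, Cdh6, Pcdhb9, Pcdhb22 and Pcdhga1 (adjusted p = 0.11, 0.0658, 0.0847, 0.176 and 0.0887). The medial calls lost with it were the 7 on Cdh6, Cdh9, Pcdhb4, Pcdhb5, Pcdhb7, Pcdhb22 and Pcdhga1 (adjusted p = 0.0741, 0.0845, 0.0674, 0.0595, 0.151, 0.216 and 0.0956). Calls gained with sex were Cdh10 as lower dorsally (adjusted p = 0.0468) and Pcdh9 and Pcdhga5 as lower medially (adjusted p = 0.0419 and 0.0182). In that fit 15 members were lower dorsally and 17 medially, where 25.4% and 27.4% of all genes were. The plot of the 25 unclustered members shows both effects side by side.

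**Figure D1:**
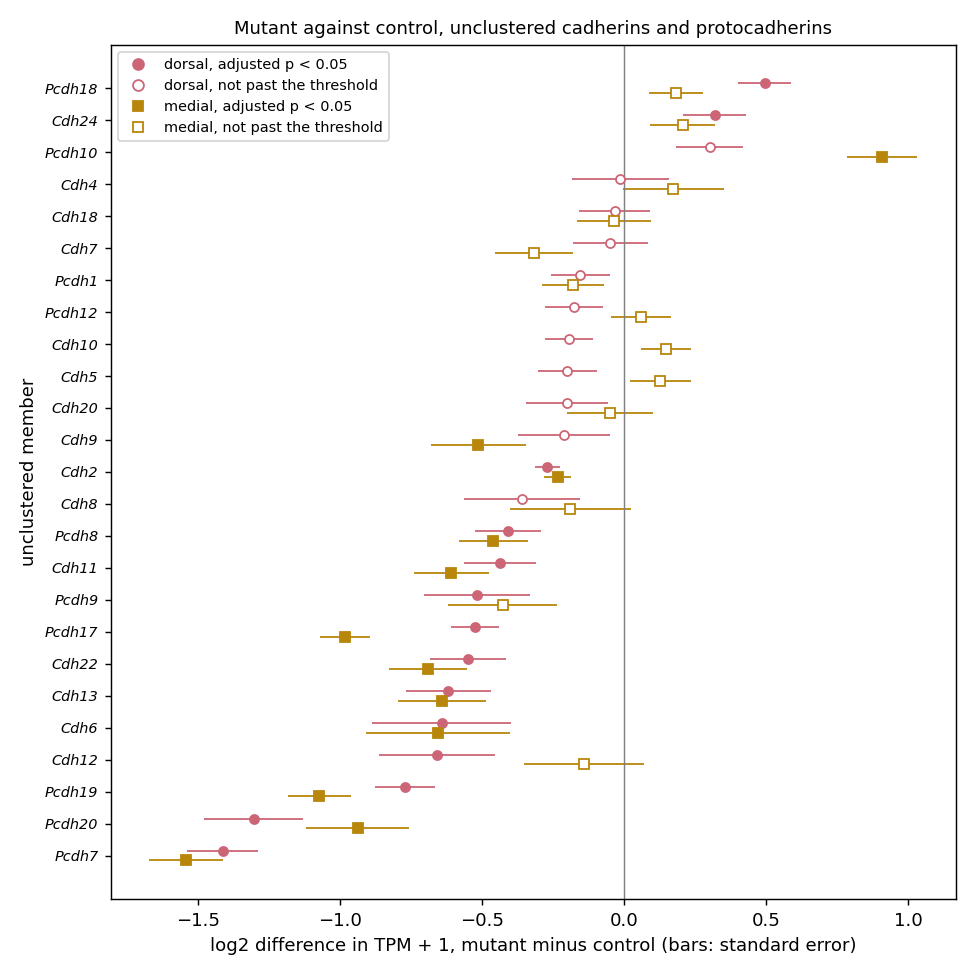
Log2 difference in TPM + 1 between mutant and control cortex (x axis, bars are standard errors) for the 25 unclustered members that were tested (y axis), in dorsal (circles) and medial (squares) cortex, filled where the adjusted p is under 0.05. Pcdh7, at -1.41 and -1.54, stands farthest to the left, and Pcdh10, Cdh24 and Pcdh18 stand to the right of 0 in both regions.

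Pcdh7, a delta-1 protocadherin that binds cells homophilically, showed the largest difference among the members. Its TPM was 17 to 22 (median 20.5) in control dorsal cortex, against 5.8, 7.35, 5.91 and 9.27 in the mutant dorsal libraries. In medial cortex it was 24.4, 20.8, 20.3, 21.9 and 24.8 in controls and 7.74, 5.09, 7.07 and 8.62 in mutants. Every mutant library lay below every control library in both regions. The log2 difference was -1.41 ± 0.12 dorsally (adjusted p = 1.37e-07) and -1.54 ± 0.13 medially (adjusted p = 1.43e-07). Over the alternatives tried the adjusted p ran from 5.84e-08 to 0.00322 dorsally and from 7.26e-08 to 0.00782 medially. The other delta-1 members behaved differently. Pcdh9 was 31.9 to 47 TPM (median 40.9) in control dorsal and 30.2, 35.6, 18.4 and 29.5 TPM in mutant dorsal cortex, groups that overlap, and fell by 0.52 ± 0.19 (adjusted p = 0.0347). That call was lost without control dorsal replicate 3, 4 or 5 or mutant dorsal replicate 3, with adjusted p = 0.0635, 0.0669, 0.0673 and 0.172. Medially its difference of -0.43 ± 0.19 did not pass (adjusted p = 0.0851) but did with sex as a covariate (-0.58, adjusted p = 0.0419). Pcdh1 differed by -0.15 ± 0.11 and -0.18 ± 0.11 in the 2 regions, without passing.

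Pcdh20, placed here outside the delta groups, was 3.64 to 6.34 TPM (median 4.74) in control dorsal and 0.908, 1.05, 1.91 and 1.62 TPM in mutant dorsal cortex. In medial cortex the values were 9.5, 8.42, 6.52, 9.47 and 8.87 in controls and 5.54, 2.49, 3.68 and 4.6 in mutants. The groups did not overlap in either region. The log2 difference was -1.31 ± 0.17 dorsally (adjusted p = 1.79e-05) and -0.94 ± 0.18 medially (adjusted p = 0.000577). Pcdh12, a protocadherin of blood vessel endothelium grouped with it here, differed by -0.18 ± 0.10 dorsally and 0.06 ± 0.11 medially and did not pass.

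The 5 delta-2 protocadherins, several of which recruit the WAVE actin regulator through a motif in their cytoplasmic part, went both ways. Pcdh19, an X-linked gene whose loss causes an epilepsy in heterozygous females, was 11.5 to 16.8 TPM (median 12.8) in control dorsal cortex and 7.59, 6.79, 7.8 and 7.55 TPM in mutant dorsal cortex. Its medial values were 15.2, 18.2, 15.1, 18.7 and 16.8 TPM in controls and 7.97, 5.83, 8.06 and 8.08 TPM in mutants. No mutant library reached a control library of its region. It fell by 0.77 ± 0.11 dorsally (adjusted p = 2.42e-05) and by 1.08 ± 0.11 medially (adjusted p = 1.27e-06). In the dorsal controls the females had 11.7, 16.8 and 12.3 TPM and the males 13.2, 15.5 and 11.5 TPM, which overlap.

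Pcdh17, which acts in axon extension and at synapses, was 7.11 to 9.21 TPM (median 7.96) in control dorsal and 4.89, 5.31, 5.51 and 5.23 TPM in mutant dorsal cortex. Medially it was 15.3, 13.8, 12.7, 12.1 and 14.6 TPM in controls and 6.04, 5.74, 7.46 and 6.54 TPM in mutants, again with no overlap. It fell by 0.53 ± 0.08 dorsally (adjusted p = 0.000113) and by 0.98 ± 0.09 medially (adjusted p = 2.6e-07). Pcdh8, a regulator of cadherin turnover at synapses, fell by 0.41 ± 0.12 dorsally (adjusted p = 0.0102) and by 0.46 ± 0.12 medially (adjusted p = 0.00558), from 37.2 to 43.6 TPM in control dorsal to 25.9 to 34.2 TPM in mutant dorsal cortex. Its medial adjusted p became 0.0516 with control medial 4 and mutant medial 3 left out, at -0.32.

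Pcdh10, which is needed for the growth of forebrain axons, moved the other way. It was 7.07, 6.75, 9.8, 11 and 9.48 TPM in control medial libraries and 14.2, 19.8, 17.4 and 17.7 TPM in mutant medial libraries, with no overlap. The log2 difference was 0.91 ± 0.12 (adjusted p = 2.28e-05). In dorsal cortex it was 14.4 to 19 TPM (median 17.4) in controls and 20.4, 24.3, 20.7 and 19.8 TPM in mutants, which also did not overlap, but the difference of 0.30 ± 0.12 did not pass (adjusted p = 0.0532). Over the alternatives this p ran from 0.0165 to 0.155. Pcdh18 was 36.6 to 43.2 TPM (median 40.7) in control dorsal and 55.9, 68.1, 52.6 and 53.7 TPM in mutant dorsal cortex, an increase of 0.49 ± 0.09 (adjusted p = 0.000446) with no overlap. In medial cortex its 27.8 to 38.5 TPM in controls and 32.1 to 42.4 TPM in mutants overlapped, and the difference of 0.18 ± 0.10 did not pass (adjusted p = 0.138). It passed there under median-ratio rescaling (0.28, adjusted p = 0.0262) and quantile normalization (0.28, adjusted p = 0.0203), and without control medial replicate 5 (adjusted p = 0.0407).

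**Figure D2:**
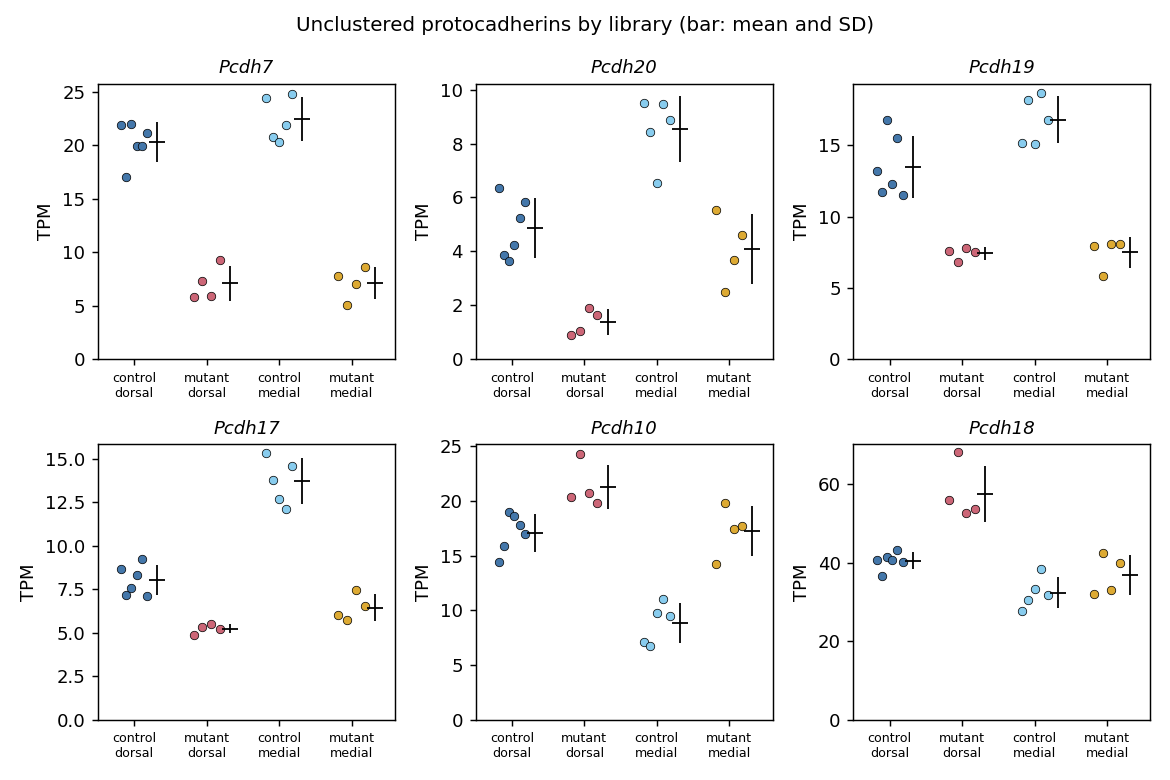
TPM (y axis, from 0) of Pcdh7, Pcdh20, Pcdh19, Pcdh17, Pcdh10 and Pcdh18 in each library (points) of the 4 groups (x axis), with the mean and SD beside them. Pcdh7 lies at or below 9.27 TPM in the mutant libraries and at or above 17 TPM in the control libraries, and in medial cortex Pcdh10 lies at or above 14.2 TPM in mutant libraries and at or below 11 TPM in control libraries.

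The sequence before the start of 4 of these protocadherin genes is shown because members of 1 family moved in opposite directions. They are the windows among the 6 plotted genes that hold no annotated exon. Each is read 5′ to 3′ on the gene's strand, from RefSeq on GRCm38.p6, and ends just before the annotated gene, with CpG dinucleotides in capitals. The windows lie at chr14:84443313-84443562 (plus strand, Pcdh17), chrX:133688994-133689243 (minus strand, Pcdh19), chr14:88471397-88471646 (minus strand, Pcdh20) and chr3:49757326-49757566 (minus strand, Pcdh18).
Pcdh17: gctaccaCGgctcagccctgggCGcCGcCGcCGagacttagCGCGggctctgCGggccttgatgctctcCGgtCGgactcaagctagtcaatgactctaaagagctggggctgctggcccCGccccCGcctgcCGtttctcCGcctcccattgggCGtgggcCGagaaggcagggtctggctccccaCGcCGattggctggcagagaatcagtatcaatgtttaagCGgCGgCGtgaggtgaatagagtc
Pcdh19: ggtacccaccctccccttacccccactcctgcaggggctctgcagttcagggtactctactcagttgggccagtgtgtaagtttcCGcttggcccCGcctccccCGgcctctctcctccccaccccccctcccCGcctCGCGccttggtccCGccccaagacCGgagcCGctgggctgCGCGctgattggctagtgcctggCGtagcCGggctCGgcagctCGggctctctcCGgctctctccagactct
Pcdh20: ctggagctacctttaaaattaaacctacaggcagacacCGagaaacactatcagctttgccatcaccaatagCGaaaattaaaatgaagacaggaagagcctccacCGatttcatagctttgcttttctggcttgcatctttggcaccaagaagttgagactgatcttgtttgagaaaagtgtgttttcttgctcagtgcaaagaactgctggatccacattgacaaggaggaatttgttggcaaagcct
Pcdh18: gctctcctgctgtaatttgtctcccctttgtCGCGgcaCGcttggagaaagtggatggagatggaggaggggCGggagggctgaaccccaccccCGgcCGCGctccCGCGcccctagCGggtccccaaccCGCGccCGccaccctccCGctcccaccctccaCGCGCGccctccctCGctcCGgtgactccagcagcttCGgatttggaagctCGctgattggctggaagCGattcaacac
The window of Pcdh20 holds 3 CpG and 42.4% G and C bases. Those of Pcdh17, Pcdh19 and Pcdh18 hold 21, 16 and 22 CpG and 64.8%, 69.2% and 67.6% G and C. Over 32851 windows of 250 bases the median was 6 CpG and 52.4% G and C, and 17.9% of windows held at least 20 CpG. The letters GACCACCCA, a motif of GLI factors, were searched on both strands and found in 0 of 25 windows of 22 member genes and in 0.225% of all windows. CAGGTG, the E-box to which SNAI and ZEB repressors bind, stood in 3 member windows (of Cdh7 and Pcdh15) and in 17.2% of all windows. No match says only that these letters are not in the window.

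Among the type I cadherins, Cdh2 was lower in mutants of both regions. It was 208 to 239 TPM (median 225) in control dorsal and 188, 190, 174 and 189 TPM in mutant dorsal cortex. In medial cortex it was 211, 199, 211, 194 and 231 TPM in controls and 180, 176, 174 and 179 TPM in mutants. The groups did not overlap, and Cdh2 had a smaller spread within groups than most genes (11.7th percentile of the SD over all genes tested). It fell by 0.27 ± 0.04 dorsally (adjusted p = 0.000153) and by 0.24 ± 0.05 medially (adjusted p = 0.000677). R-cadherin (Cdh4), the other type I member above the filter, differed by -0.01 ± 0.17 and 0.17 ± 0.18 and did not pass, with group means of 32.8 and 33 TPM in dorsal cortex.

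Of the 12 type II cadherins tested, 4 were lower and 1 higher dorsally, and 4 were lower and 0 higher medially. Medially 5 had an unadjusted p under 0.05 in limma, beside 6452 of all 13520 genes. The lower share, 33.3% in each region, is near the 27.6% and 30.2% of all genes. Cdh11, a cadherin of mesenchyme and of cortical neurons, was 52.7 to 73.5 TPM (median 64.2) in control dorsal and 45, 54.5, 32.9 and 58.3 TPM in mutant dorsal cortex, which overlap, and fell by 0.44 ± 0.13 (adjusted p = 0.0113; 0.0589 without mutant dorsal replicate 3). In medial cortex it was 46.5, 39.6, 48.9, 42.2 and 50 TPM in controls and 27.2, 31.6, 26.2 and 32.8 TPM in mutants, with no overlap, and fell by 0.61 ± 0.13 (adjusted p = 0.0014). Cdh22 was 1.22 to 2.04 TPM (median 1.71) in control dorsal and 0.502 to 1.06 TPM in mutant dorsal cortex. It fell by 0.55 ± 0.13 dorsally (adjusted p = 0.00344) and by 0.69 ± 0.14 medially (adjusted p = 0.000734), without overlap in either region.

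Cdh6, known for marking areas of the developing cortex, fell by 0.64 ± 0.24 dorsally (adjusted p = 0.0454) and by 0.66 ± 0.25 medially (adjusted p = 0.0467). Both calls depended on single libraries: Cdh6 was 3.12 TPM in mutant dorsal replicate 3, where the other mutant dorsal libraries had 7.29 to 7.76 TPM, and without it the adjusted p was 0.223. The dorsal call was lost in 10 and the medial call in 11 of 19 fits that left out 1 library, with the medial p reaching 0.201 without mutant medial replicate 3. Cdh12 was 3.24 to 7.12 TPM (median 4.72) in control dorsal and 1.75, 4.66, 1.67 and 3.56 TPM in mutant dorsal cortex, and fell by 0.66 ± 0.20 (adjusted p = 0.0163). Without mutant dorsal replicate 1 or 3 its adjusted p was 0.0761 or 0.0822, and medially it differed by -0.14 ± 0.21. Cdh9, known from hippocampal mossy fibre synapses, fell medially by 0.51 ± 0.17 (adjusted p = 0.0204), from 0.295 to 1.66 TPM in controls to 0.353 to 0.613 TPM in mutants, which overlap. That call was lost without control medial replicate 2 or 6 or mutant medial replicate 3 or 4, with adjusted p of 0.0574, 0.0524, 0.0519 and 0.0506. Cdh9 reached 1 TPM only in control medial libraries. It passed the filter only through the group where it was high, so the call is not independent of the filter.

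Cdh24, which binds catenins like other type II cadherins, was the type II member that was higher in mutant dorsal cortex. It was 20.1 to 27.5 TPM (median 24.6) in control dorsal and 27.3, 27.6, 36.6 and 31.5 TPM in mutant dorsal cortex, which overlap, and rose by 0.32 ± 0.11 (adjusted p = 0.0294). The call was lost in 5 of 19 fits without 1 library (control dorsal replicate 2, 4 or 6, mutant dorsal replicate 3 or 4), with adjusted p of 0.0608, 0.0564, 0.0517, 0.133 and 0.065, and with sex as a covariate (adjusted p = 0.11). Medially it differed by 0.21 ± 0.11 (adjusted p = 0.163). VE-cadherin (Cdh5), the cadherin of endothelial junctions, differed by -0.20 ± 0.10 and 0.13 ± 0.11, and the 10 endothelial markers summed to 110 to 125, 90.9 to 111, 91.1 to 121 and 85.8 to 115 TPM in the 4 groups in the order given at the start. Cdh8, Cdh10 and Cdh20 did not pass in either region, at -0.36 ± 0.20, -0.19 ± 0.08 and -0.20 ± 0.15 dorsally and -0.19 ± 0.21, 0.15 ± 0.09 and -0.05 ± 0.15 medially. With sex as a covariate Cdh10 passed as lower dorsally (-0.25, adjusted p = 0.0468).

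T-cadherin (Cdh13), which is held in the membrane by a lipid anchor and has no cytoplasmic part, was 28.6 to 37.4 TPM (median 31.6) in control dorsal and 19.9, 22.2, 15.9 and 24.1 TPM in mutant dorsal cortex. Its medial values were 17.4, 13.2, 20.2, 17.8 and 21.6 TPM in controls and 8.64, 12.6, 8.98 and 15.2 TPM in mutants. The dorsal groups did not overlap and the medial groups did. It fell by 0.62 ± 0.15 dorsally (adjusted p = 0.0034) and by 0.64 ± 0.15 medially (adjusted p = 0.00317).

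The clustered protocadherins lie on chromosome 18 in the order Pcdha, Pcdhb and Pcdhg. All 12 Pcdha and all 19 Pcdhg genes with a unique position end within 10 bases of a common 3′ end, since a variable first exon is joined to constant exons, so reads of the constant exons can be shared and the values per gene are uncertain. All 22 Pcdhb genes have a single-exon transcript. Summed over the 59 members, they reached 99.1 ± 16 TPM (SD, n = 6) in control dorsal, 70.6 ± 20.1 TPM (n = 4) in mutant dorsal, 87 ± 15 TPM (n = 5) in control medial and 54.1 ± 12.7 TPM (n = 4) in mutant medial cortex. The dorsal groups overlapped, and the medial groups did not, with 71.9 TPM as the lowest control and 64.9 TPM as the highest mutant library.

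In the Pcdhb array 2 of 20 tested genes were lower dorsally and 7 medially. In the Pcdhg array 4 of 8 were lower in each region, and in the Pcdha array 0 of 5 in each. None was higher. An unadjusted p under 0.05 in limma was found for 0 of the 5 Pcdha genes dorsally and 3 medially. Of all 13520 genes, 6307 had one dorsally and 6452 medially. Over the 33 clustered genes 18.2% were lower dorsally and 33.3% medially, under or near the 27.6% and 30.2% of all genes. With genotype and number as a random block 8 of 33 were lower dorsally and 17 of 33 medially, where 26.9% and 30.5% of all genes were lower. The medial share in that fit lies above that of all genes. The log2 difference of all 33 was below 0 in both regions, as it was for 69.0% and 70.0% of all genes tested. Every clustered gene tested stayed below 0 in 24 of 32 settings dorsally and 27 of 32 medially. These settings include the main fit itself and a filter of 5 TPM that left only 6 clustered genes. They also include fits without a library of the other region, which cannot change the estimate, so the counts overstate how often the direction was put to a test. Dorsally Pcdhga5 stood above 0 under median-ratio rescaling (0.03), quantile normalization (0.08), the fixed block (0.02) and without control dorsal replicate 1 or 5, as did Pcdhga2, Pcdhga3 and Pcdhga5 without mutant dorsal replicate 1, and Pcdha4 without mutant dorsal replicate 3 or both libraries of mutant 3. Medially Pcdha6 stood above 0 under quantile normalization (0.09) and without control medial replicate 3 or mutant medial replicate 4, and Pcdhga3 with the fixed block (0.17) and without mutant medial replicate 1. Pcdhga4 was 4.64 to 6.48 TPM (median 5.52) in control dorsal and 2.68, 4.34, 3.18 and 4.02 TPM in mutant dorsal cortex. In medial cortex it was 4.03, 4.07, 5.05, 4.65 and 5.34 TPM in controls and 2.47, 2.76, 3.18 and 3.14 TPM in mutants. No groups of a region overlapped, and it fell by 0.53 ± 0.12 in each region (adjusted p = 0.00205 and 0.00222).

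Pcdhgb2 fell by 0.39 ± 0.11 dorsally (adjusted p = 0.0116) and 0.45 ± 0.12 medially (adjusted p = 0.00526), also without overlap, but under quantile normalization its adjusted p was 0.0547 and 0.0522. Pcdhgc3, a C-type isoform known for promoting dendrite growth of cortical neurons, was 2.43 to 3.16 TPM in control dorsal and 1.93 to 2.52 TPM in mutant dorsal cortex. It fell by 0.29 ± 0.11 (adjusted p = 0.0402) and by 0.32 ± 0.11 medially (adjusted p = 0.0285), calls lost in 7 and 3 of 19 fits without 1 library. Pcdhga1 and Pcdhb22 passed in both regions at adjusted p of 0.0443 to 0.047 and lost the dorsal call in 12 and 11 such fits and the medial call in 8 and 11. Pcdhb9 fell by 0.56 ± 0.14 medially (adjusted p = 0.00455) and by 0.38 ± 0.14 dorsally (adjusted p = 0.0353), the latter lost in 5 of 19 fits. The medial calls on Pcdhb3, Pcdhb4, Pcdhb5, Pcdhb7 and Pcdhb10 were falls of 0.40 to 0.57, at adjusted p from 0.00758 to 0.0228. Of these 5, Pcdhb4, Pcdhb5, Pcdhb7 and Pcdhb10 did not pass without control medial 4 and mutant medial 3.

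**Figure D3:**
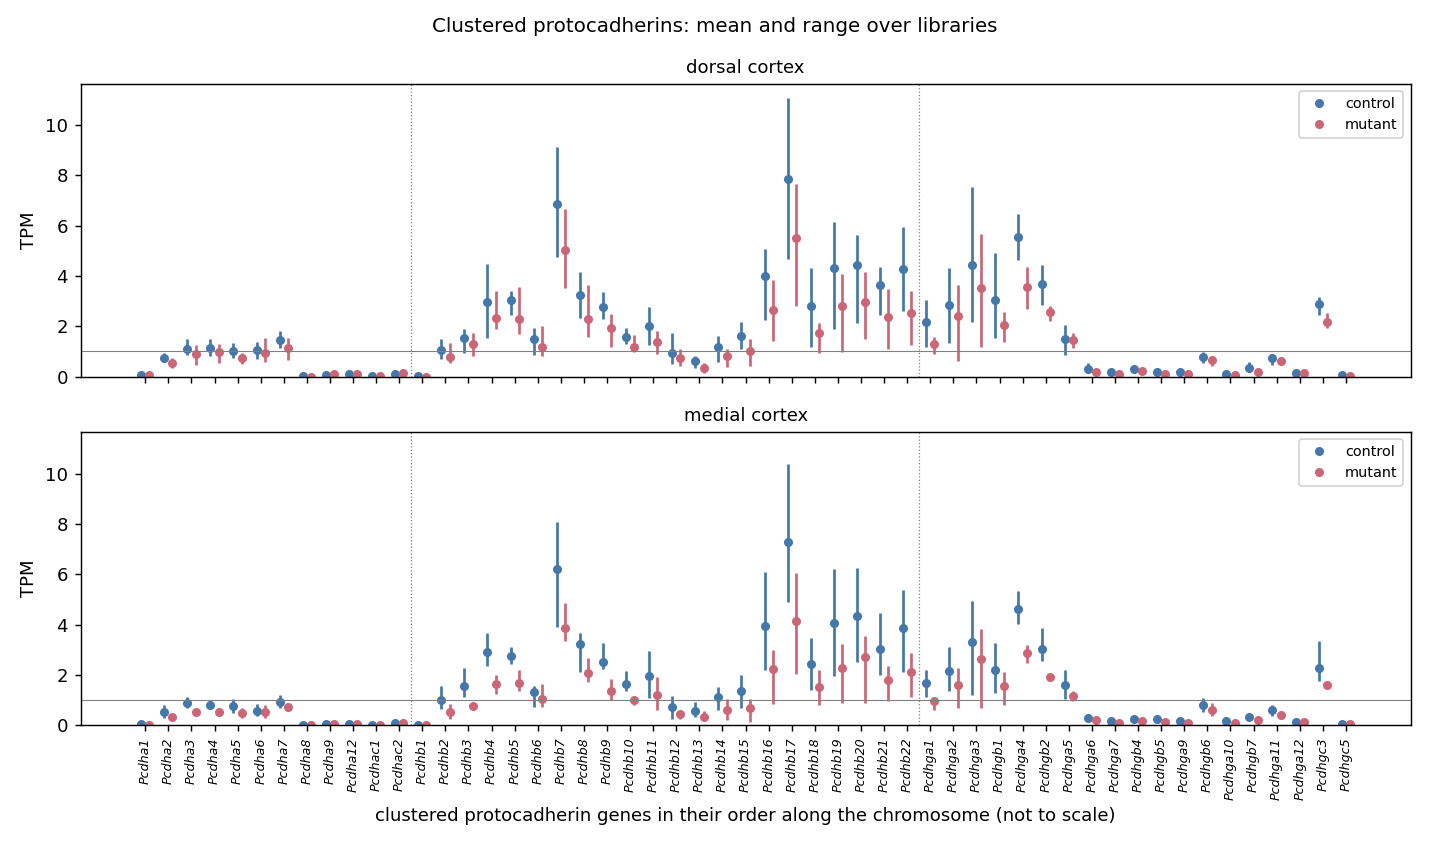
Mean (points) and range over libraries (lines) of TPM (y axis) for clustered protocadherin genes in their order along the chromosome (x axis, not to scale), control in blue and mutant in red, in dorsal (top) and medial (bottom) cortex; dotted lines part the 3 arrays. The grey line marks 1 TPM, under which most Pcdha genes and most of the later Pcdhg genes lie, and Pcdhb17 and Pcdhb7 have the highest means.

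Libraries of 1 group varied widely along the arrays. Of the 58 members, 6 had a spread within groups above the 95th percentile of all genes, and all 6 were clustered: Pcdhb16, Pcdhb17, Pcdhb19, Pcdhb20, Pcdhga2 and Pcdhga3. Pcdhb19 was 5.46, 2.79, 6.15, 4.67 and 1.91 TPM in the dorsal libraries of controls 2 to 6, and 6.21, 2.21, 6.02, 3.88 and 1.97 TPM in their medial libraries. In mutants 1 to 4 it was 0.995, 4.09, 2.47 and 3.65 TPM dorsally and 0.869, 2.84, 2.1 and 3.25 TPM medially. A number that was low in one region was low in the other. Pcdhga3 in controls 2 to 6 was 3.15, 2.18, 5.27, 6.22 and 2.26 TPM dorsally and 3.73, 1.21, 4.08, 4.96 and 2.61 TPM medially. It did not pass in either region (-0.27 ± 0.38 and -0.28 ± 0.39), and neither did Pcdhb19 (-0.51 ± 0.33 and -0.60 ± 0.35).

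The deviations from the group mean over the 33 clustered genes were correlated between the dorsal and medial library of the same genotype and number, with Pearson's r of 0.622 to 0.899 (median 0.743) in 9 pairs. Over the 25 unclustered members the same pairs gave -0.03 to 0.635 (median 0.298). These r run across genes, which share exons, position and library and are not independent. With other numbers of the same genotype r over the clustered genes ranged from -0.821 to 0.85, and the medial library of control 3 resembled another dorsal number more closely (0.85) than its own (0.773). Runs of adjacent genes deviated together: mutant 1 lay below its group mean at every tested gene from Pcdhb15 to Pcdhgb1 in both libraries, and mutant 4 lay above it at every one of them in both. These runs were noticed in the values and were not tested.

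**Figure D4:**
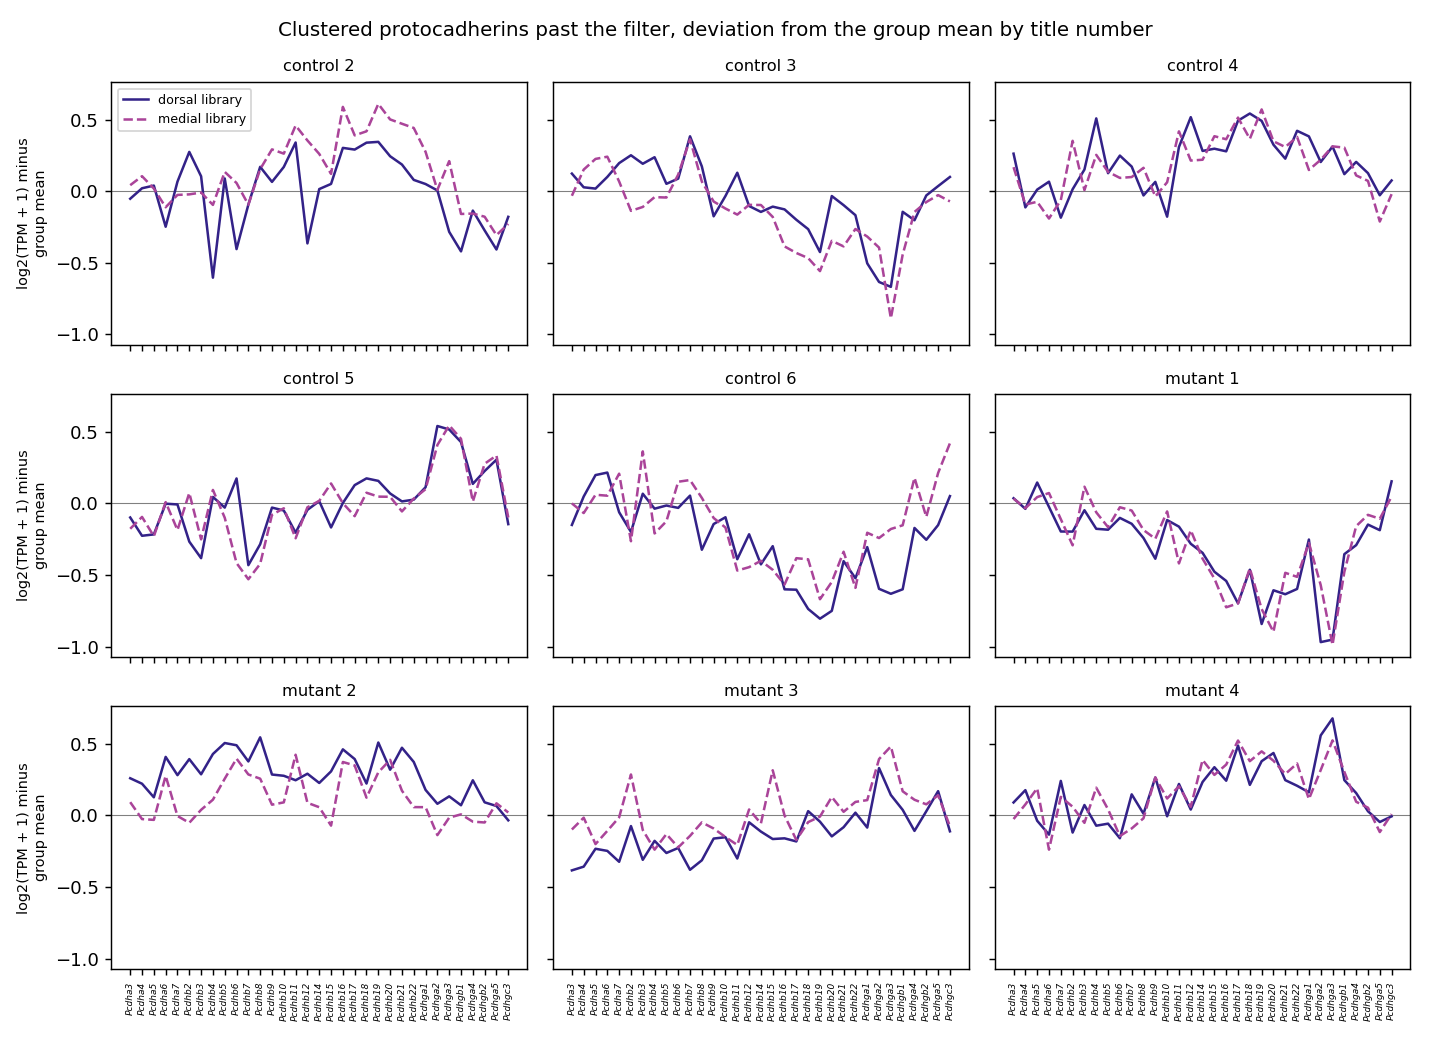
Log2(TPM + 1) minus the group mean (y axis) of the 33 tested clustered genes in chromosome order (x axis), 1 panel per genotype and replicate number with both regions, solid for the dorsal and dashed for the medial library. In mutant 1 both lines dip to about the same depth around Pcdhga3, and in mutant 4 both rise there.

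The regions were compared within each genotype. In control cortex 14 of 58 members were lower and 3 higher medially than dorsally (24.1% and 5.17%), where 14.9% of all genes were lower and 17.6% higher. In mutant cortex 11 were lower and 1 higher, against 10.8% and 8.03% of all genes. The median log2 difference of the members was -0.16 in controls and -0.26 in mutants, beside 0.01 and 0.003 over all genes. With genotype and number as a random block the mutant counts were 23 lower and 2 higher, where 20.7% of all genes were lower and 18.4% higher in that fit. Without mutant dorsal replicate 2 the mutant counts were 5 lower and 1 higher, where 5.01% of all genes were lower and 3.4% higher. When only the 2 mutant groups were fitted both counts were 0, with adjusted p of the called members from 0.0569 to 0.141. The share of all genes in that fit is not given here.

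Of the 12 type II cadherins tested, 6 were lower medially in controls and 5 in mutants, where 14.9% and 10.8% of all genes were lower. None was higher, where 17.6% and 8.03% of all genes were. In limma 6 had an unadjusted p under 0.05 in each genotype, beside 5636 of all 13520 genes in controls and 4431 in mutants. Cdh12 was 3.24 to 7.12 TPM (median 4.72) in control dorsal and 0.855, 0.997, 0.975, 1.62 and 1.76 TPM in control medial cortex, a difference of -1.41 ± 0.19 (adjusted p = 7.32e-05). In mutants it was -0.89 ± 0.22 (adjusted p = 0.0109; 0.0541 without mutant dorsal replicate 2). Cdh8 was 27.1 to 30.4 TPM (median 28.9) in control dorsal and 9.81, 8.02, 19.4, 15.8 and 17.1 TPM in control medial cortex, at -1.06 ± 0.19 (adjusted p = 0.000566). In mutants it was 21.1, 28.4, 18 and 22.7 TPM dorsally and 10.2, 16.7, 8.02 and 12.9 TPM medially, at -0.89 ± 0.22 (adjusted p = 0.0111; 0.0529 without mutant dorsal replicate 2, 0.0513 without mutant medial replicate 3). Neither gene overlapped between the regions in either genotype.

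Cdh6 was lower medially by 0.94 ± 0.23 on the log2 scale in controls and Cdh11 by 0.48 ± 0.12, and Cdh18 by 0.60 ± 0.12. In mutants the values were -0.95 ± 0.27, -0.65 ± 0.14 and -0.61 ± 0.14, and these 3 genes passed in both genotypes. Cdh18 reached 1 TPM only in dorsal libraries and passed the filter only through them, so its calls are not independent of the filter. The call on Cdh6 in mutants, whose regional groups overlap, was lost without mutant dorsal replicate 1, 2 or 4 or mutant medial replicate 3 (adjusted p = 0.051, 0.0766, 0.0654 and 0.0819). Cdh10 fell slightly in controls, by 0.22 ± 0.08 (adjusted p = 0.0426), a call lost in 8 of 19 fits without 1 library. Cdh4 was 23.1 to 42.6 TPM (median 32.2) in control dorsal and 18.2, 16.5, 15, 14.1 and 18.8 TPM in control medial cortex, without overlap, at -0.93 ± 0.16 (adjusted p = 0.000381). In mutants it was 29.9, 42.2, 20.6 and 39.4 TPM dorsally and 20.6, 18.2, 17.7 and 18.2 TPM medially, at -0.74 ± 0.19 (adjusted p = 0.011; 0.055 without mutant dorsal replicate 2). Cdh13 differed by -0.80 ± 0.14 in controls (adjusted p = 0.000418) and -0.82 ± 0.16 in mutants (adjusted p = 0.00399), without overlap in either.

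Among the protocadherins, Pcdh9 was lower medially, at -0.98 ± 0.17 in controls (adjusted p = 0.000462) and -0.89 ± 0.20 in mutants (adjusted p = 0.00656). In controls it was 31.9 to 47 TPM (median 40.9) dorsally and 15.1, 14.9, 20.9, 28 and 22.8 TPM medially. Pcdh20 was higher medially, at 0.72 ± 0.16 in controls (adjusted p = 0.0029) and 1.08 ± 0.19 in mutants (adjusted p = 0.00272), without overlap in either genotype, as the values above show. Pcdh17 was higher medially in controls by 0.71 ± 0.08 (adjusted p = 2.08e-05), and in mutants its 0.25 ± 0.09 did not pass (adjusted p = 0.0633) but did with a random block (adjusted p = 0.0166). Pcdh19 was higher in control medial cortex by 0.30 ± 0.10 (adjusted p = 0.0261), a call lost in 5 of 19 fits without 1 library, and in mutants differed by 0.00 ± 0.12. Pcdh10 was lower in control medial cortex, at -0.90 ± 0.11 (adjusted p = 3.64e-05), and in mutants its -0.29 ± 0.13 passed only with a block (adjusted p = 0.122 without, 0.0217 with a random block). Pcdh18 was lower medially by 0.32 ± 0.09 in controls (adjusted p = 0.00827) and by 0.63 ± 0.10 in mutants (adjusted p = 0.00207). Pcdh1 was lower medially at -0.41 ± 0.10 in controls (adjusted p = 0.00438) and -0.43 ± 0.12 in mutants (adjusted p = 0.0151; 0.0645 and 0.0637 without mutant dorsal replicate 2 or 4). With the random block Pcdh8 (adjusted p = 0.00664 in controls, 0.00577 in mutants), Pcdhgc3 (0.00995 and 0.0118), Cdh2 (0.0171 in controls) and Cdh5 (0.0356 in controls) passed as lower medially, where the fit without it gave 0.0714, 0.0891, 0.0585, 0.0959, 0.084 and 0.129. So did Cdh7 in mutants (-0.31, adjusted p = 0.0256), where the fit without the block gave 0.138.

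**Figure D5:**
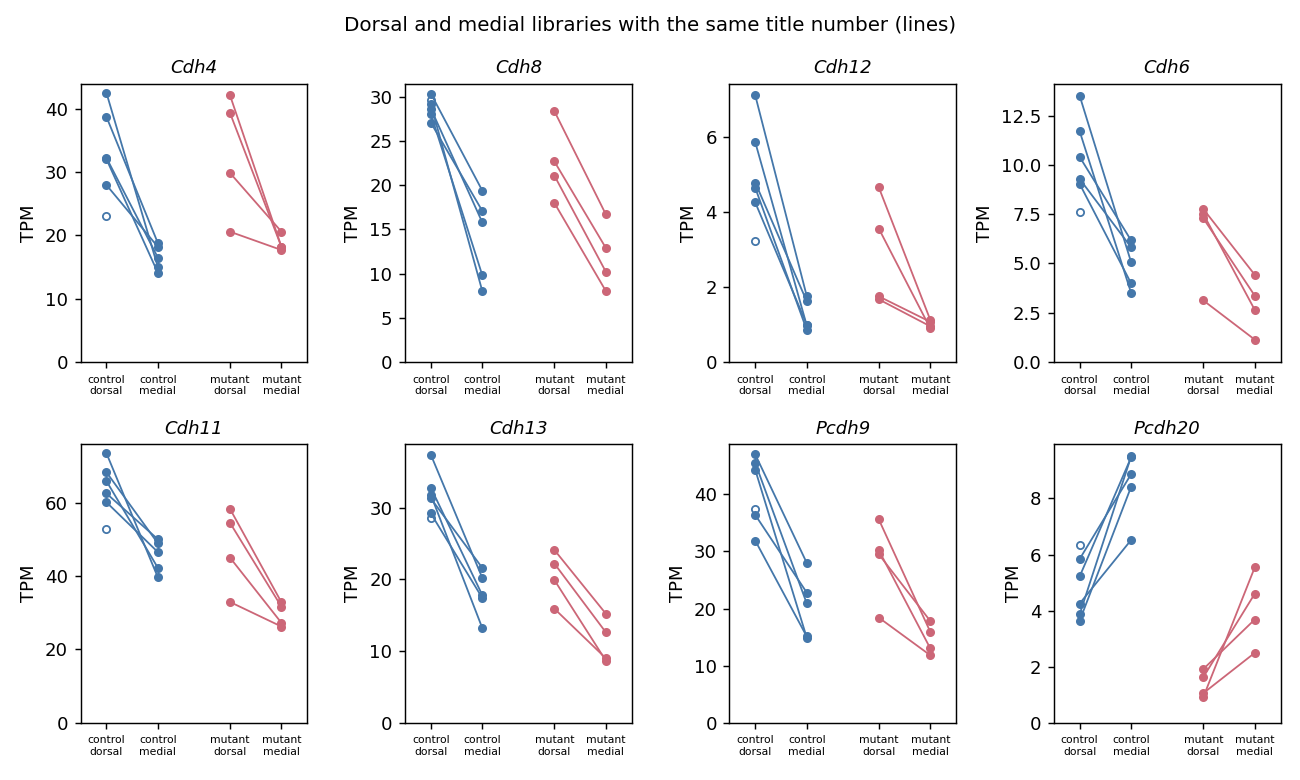
TPM (y axis, from 0) of 8 members in dorsal and medial libraries (x axis), with lines joining libraries of the same genotype and replicate number; the open circle is control 1, which has no medial library. Lines of Cdh4, Cdh8, Cdh12, Cdh6, Cdh11, Cdh13 and Pcdh9 run down from dorsal to medial, and lines of Pcdh20 run up.

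Between regions the count of clustered genes depended on the pairing. Without a block 2 of 33 were lower medially in controls, Pcdha6 (-0.40 ± 0.13, adjusted p = 0.0248) and Pcdha7 (-0.37 ± 0.11, adjusted p = 0.0202), and 1 in mutants, Pcdha4 (-0.38 ± 0.13, adjusted p = 0.0415). These calls were lost in 3, 1 and 7 of 19 fits without 1 library, and the call on Pcdha4 also with the fixed block (adjusted p = 0.0687). Pcdha6 reached 1 TPM only in dorsal libraries and passed the filter only through them, so its call is not independent of the filter. With the random block 6 of 33 were lower medially in controls and 10 in mutants, against 22.4% and 20.7% of all genes in that fit, and none was higher. Those in mutants were Pcdha3, Pcdha4, Pcdha5, Pcdha6, Pcdha7, Pcdhb3, Pcdhb5, Pcdhb9, Pcdhgb2 and Pcdhgc3. A fixed block by replicate number gave 2 lower in controls and 1 in mutants, the latter being Pcdhb17 (adjusted p = 0.0144). In that fit 20.4% and 16.8% of all genes were lower. Cdh23 and Pcdh15, which together form the tip links of hair cells in the inner ear, stayed below the filter and were named after their values were seen. Cdh23 was 0.0262 to 0.046 TPM in control dorsal and 0.119 to 0.724 TPM in control medial cortex, and Pcdh15 was 0.19 to 0.362 and 0.416 to 0.837 TPM. Neither pair of groups overlapped, and in the fit without the filter the differences were 0.45 ± 0.09 and 0.29 ± 0.07 (adjusted p = 0.00178 and 0.00738). In that fit Pcdh15 was also lower in mutant than control medial cortex, by -0.35 ± 0.08 (adjusted p = 0.00319).

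Whether the mutant effect differed between the regions was tested as an interaction. No member of 58 passed in limma, where 0.0074% of all genes did. An unadjusted p under 0.05 was found for 451 of all 13520 genes and for 5 members: Pcdh17, Pcdh10, Cdh10, Pcdh18 and Cdh5. The medial effect minus the dorsal effect was 0.61 ± 0.17 for Pcdh10 (adjusted p = 0.79) and -0.46 ± 0.12 for Pcdh17 (adjusted p = 0.694). With genotype and number as a random block, Pcdh10 passed (0.63 ± 0.13, adjusted p = 0.0366) and Pcdh17 did not (-0.47 ± 0.11, adjusted p = 0.0619). With genotype and number as a fixed block neither passed (adjusted p = 0.105 and 0.228). The genotype effects that passed in one region and not in the other, such as that on Pcdh18, are therefore not shown to differ between regions.

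Genes that work with the members were taken as lists. Among 11 tested genes of catenins and junction partners, 2 were higher and 5 lower in each region, where 9.93% of all genes were higher and 27.6% lower dorsally and 9.44% and 30.2% medially. Ctnnb1 (beta-catenin), which binds the tail of classical cadherins, rose in both regions, by 0.37 ± 0.05 in dorsal cortex (adjusted p = 1.06e-05) and 0.32 ± 0.05 in medial cortex (adjusted p = 9.27e-05). Ctnna2 (alpha-N-catenin), the neuronal alpha-catenin, fell by 0.45 ± 0.12 and 0.55 ± 0.13 (adjusted p = 0.00915 and 0.00259), and Ctnnd2 (delta-catenin) fell by 0.46 ± 0.09 and 0.30 ± 0.09 (adjusted p = 0.000743 and 0.0156). Of 11 tested genes of other cadherin branches, 0 were higher and 6 lower dorsally and 8 medially, against 27.6% and 30.2% lower among all genes. Fat3, which shapes dendrites, fell by 0.95 ± 0.11 and 1.04 ± 0.11 (adjusted p = 2.64e-06 and 1.93e-06). Among 4 tested repressors of cadherin genes, out of 9 listed, 0 rose and Zeb2 and Tcf4 fell in both regions. Over all genes 9.93% and 9.44% were higher and 27.6% and 30.2% lower. Of 12 genes for promoter choice and silencing of clustered protocadherins, 3 were higher and 1 lower dorsally and 4 and 1 medially, against 9.93% and 9.44% of all genes higher and 27.6% and 30.2% lower. The cohesin subunit Rad21, which forms loops between promoters and enhancers with CTCF, rose as well, by 0.36 ± 0.04 in dorsal cortex (adjusted p = 5.83e-06) and 0.33 ± 0.04 in medial cortex (adjusted p = 2.63e-05). Of 7 proteases that cleave cadherins 4 were lower dorsally and 5 medially, and of 9 WAVE complex genes 4 and 2 were lower, with 0 higher in both lists, against 27.6% and 30.2% of all genes lower. The medial WAVE share lies under that of all genes.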

How the data were processed

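The deposited table holds TPM values (transcripts scaled for length and to 1000000 per library) that the authors made for 47643 genes in 19 libraries. The labels' protocols name an RNeasy Micro Kit and a TruSeq Stranded Total RNA Kit, and the submitters' processing notes name the build mm10. Not given in the sources used here: the aligner, quantifier, annotation release and strand setting. Depth is unknown, so no counting interval is given.

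From these values log2(TPM + 1) was computed, and the 13520 genes that reached 1 TPM in 4 or more libraries were fitted with limma 3.58.1 in R 4.3.3, with 4 group means over all 19 libraries and a trended, robust variance. P-values were adjusted over all genes of a comparison by Benjamini-Hochberg, with 0.05 as threshold. All adjusted p-values in the text are from limma. The fit was tested on simulated data.

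Members and lists were chosen with earlier results of these data known. Named were a set list of 26 members, every unclustered member past the threshold, up to 10 clustered members with the smallest adjusted p, and the 5 members with the highest mean TPM. Pcdhb19, Pcdhga3, Cdh7, Cdh23 and Pcdh15 were named after their values were seen. Other pseudocounts, filters, scalings, covariates, replicate blocks and left-out libraries were tried.

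Dorsal and medial libraries with the same genotype and number deviated together over all genes (r = 0.549 to 0.795 in 9 pairs), so the numbers were taken to pair the regions within a genotype, from the data and not from the labels. Promoter sequences were read from RefSeq.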

Additional observations from a re-analysis of the deposited data

Results flagged for a closer look

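In 11 of 164 groups of 4 to 6 libraries, over 41 named members, the highest or lowest library stood apart from the rest of its group by Dixon's criterion at the 95% level. Chance flags about 1 in 20 groups.

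In mutant dorsal replicate 3, Cdh6 was 3.12 TPM where the other libraries of the group had 7.29 to 7.76 TPM, and Cdh2 was 174 TPM against 188 to 190 TPM. This library also had the lowest summed projection neuron markers of the dorsal libraries, whose part in these values was not tested. Cdh20 was 5.77 TPM in mutant dorsal replicate 1, against 3.78 to 3.9 TPM, and Pcdhb4 was 3.4 TPM in mutant dorsal replicate 2, against 1.89 to 2.11 TPM.

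Cdh3 was 1.03 TPM in control medial replicate 4, the library with the most choroid plexus RNA, and 0 to 0.0791 TPM in the other control medial libraries. Cdh1 was 0.186 TPM in control medial replicate 3, against 0 to 0.0519 TPM. Pcdhb9 was 3.26 TPM in control medial replicate 2, against 2.24 to 2.39 TPM, and Pcdhgc3 was 3.34 TPM in control medial replicate 6, against 1.77 to 2.2 TPM.

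In mutant medial cortex Pcdh19 was 5.83 TPM in replicate 2, against 7.97 to 8.08 TPM. Pcdhga1 was 0.595 TPM in replicate 1, against 1.01 to 1.09 TPM, and Pcdha4 was 0.59 TPM in replicate 4, against 0.473 to 0.491 TPM.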

How the results depend on the processing

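Over single named members and alternatives, 3841 results were counted as unchanged, 58 gained a call and 244 lost one. None changed sign with a call in either fit, and a change of sign without a call was counted as unchanged. The members of each comparison were named partly because they passed, so the tally misses calls gained by members not named and leans toward losses. In mutant dorsal cortex the 2 higher members became 1 without a filter, with the title number as a fixed replicate block, with sex as a covariate and without both libraries of mutant 3. The 18 lower became 11 with a filter of 5 TPM, which tests fewer genes, 11 under quantile normalization and 10 without both libraries of mutant 3. In mutant medial cortex the 1 higher member became 4 under median-ratio rescaling, 5 under quantile normalization and 2 with the fixed block, and the 22 lower became 11 with the 5 TPM filter, 12 under quantile normalization and 12 without control medial 4 and mutant medial 3. Between control regions, 5 instead of 3 were higher without a filter and 9 instead of 14 lower with the 5 TPM filter. Between mutant regions, the 11 lower became 7 with the 5 TPM filter, 23 with the random replicate block and 0 when only the groups compared were fitted. The 1 higher became 2 under median-ratio rescaling, quantile normalization and either block, and 0 with only those groups. Under the random block 1 member had a higher effect medially. Except for the smaller sets of genes or samples, the cause was not tested. The share of all genes called is not given here for most of these fits or for most fits without 1 library below.

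Leaving out 1 library at a time gave 1 to 3 higher and 10 to 22 lower members in mutant dorsal cortex and 1 to 2 higher and 17 to 25 lower in mutant medial cortex. Between regions it gave 2 to 3 higher and 12 to 17 lower in controls, 1 to 2 higher and 5 to 16 lower in mutants, and 0 for the difference of effects. The dorsal count of higher members was 1 without control dorsal replicate 2, 4 or 6 or mutant dorsal replicate 3 or 4, and the dorsal count of lower members was 10 without mutant dorsal replicate 3. The medial count of higher members was 2 without control medial replicate 5. Between mutant regions the lower count was 5 without mutant dorsal replicate 2, where 5.01% of all genes were lower. The higher count was 2 without mutant medial replicate 2.

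Controls and mutants of the same number and region did not deviate together (r = -0.436 to 0.138 in 7 pairs), so the numbers do not pair genotypes. With the title number as a fixed replicate block 14 members passed dorsally (13 lower) and 19 medially (17 lower). In those fits 9.49% and 19.3% of all genes were lower and 5.84% and 8.07% higher. For the paired regions the fixed block gave 19 calls in controls (16 lower) and 15 in mutants (13 lower), where 20.4% and 16.8% of all genes were lower. The random block gave 24 (21 lower) and 25 (23 lower), where 22.4% and 20.7% of all genes were lower. Leaving out mutant 3, leaving out control medial 4 with mutant medial 3, and the fixed block over all libraries for the difference of effects were chosen after seeing the data. TPM keep no depth, so the precision of low values is unknown.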
